A study of Mus musculus with 23 samples.

Results

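The genes described here encode the proteins of the mitochondrial ribosome. Their members were chosen by name alone: every gene whose GENCODE vM21 symbol was Mrpl or Mrps followed by a number. This gave 78 of the 22350 genes with a protein-coding entry, 49 with an Mrpl symbol and 29 with an Mrps symbol. All 78 had enough reads to be tested in all 6 comparisons.

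The samples came from C57BL/6 mouse small intestine. Organoids are cultures of intestinal epithelium grown from crypts. RNA-seq was made from WT organoids (VillinCre.ERT2.RPL22.HA, 2 lines), from Rptor fl/fl organoids (VillinCre.ERT2.Rptor.fl/fl, 2 lines) and from stem cell enriched (SCe) organoids, which were VillinCre.ERT2.RPL22.HA organoids cultured with CHIR 99021 and valproic acid (3 lines). Ribo-seq, which sequences the mRNA fragments covered by ribosomes (footprints), was made from Rptor fl/fl organoids that also carried RPL22.HA (3 lines) and from SCe organoids (3 lines). It was also made from small intestine of adult WT mice (Lgr5Cre.ERT2.RPL22.HA, 3 animals) and Rptor fl/fl mice (Lgr5Cre.ERT2.Rptor.fl/fl.RPL22.HA, 3 animals). Rptor encodes Raptor, a subunit of the kinase complex mTORC1. Cre.ERT2 is driven by the Villin promoter throughout the epithelium and by the Lgr5 locus in stem cells, and RPL22.HA puts an epitope tag on the cytosolic ribosomes of cells in which Cre was active, by which ribosomes were pulled down for Ribo-seq. The labels call the WT and Rptor fl/fl samples untreated, while the study's methods describe induction with tamoxifen. In RNA-seq the label of the Rptor fl/fl lines names no RPL22.HA, so that allele and the loss of Rptor cannot be told apart there. Rptor fl/fl and SCe organoids differ in culture medium as well as in Rptor. In every comparison of Rptor fl/fl with SCe organoids, the medium and the loss of Rptor therefore cannot be told apart.

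Mitochondria keep a small genome of their own. The 13 proteins it encodes, all parts of the respiratory chain, are made on a dedicated ribosome inside the organelle. Its RNA comes from the mitochondrial genome, but its proteins are encoded in the nucleus, translated on cytosolic ribosomes and imported. A part of these proteins descends from bacterial ribosomal proteins and the rest were added in the mitochondrial lineage. mTORC1 is known from other systems to favour the translation of many nuclear-encoded mitochondrial mRNAs through the 4E-BP proteins, and intestinal stem cells are known for high mitochondrial activity. Of the members, 51 belong to the large subunit and 26 to the small subunit. Mrps18a and Mrps30 carry small subunit names but sit in the large subunit. Mrps36 is now known as a subunit of the α-ketoglutarate dehydrogenase complex and was kept because the rule is by symbol.

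The members lay on 17 chromosomes, with 11 genes on chromosome 11 and 8 on chromosome 17. Of the 78, 18 (23.08%) had a protein-coding neighbour that started within 1000 bases on the other strand and ran away from them, against 6.80% of all protein-coding genes. Mrps12 started 172 bases from Sars2, the mitochondrial seryl-tRNA synthetase, Mrpl54 started 26 bases from Apba3 and Mrps18c 29 bases from Helq. A protein-coding gene on the other strand overlapped 23 of the members (29.49%), against 16.58% of all protein-coding genes. Among these were Mrpl18 with Tcp1 and Mrpl9 with Oaz3, and Mrps11 overlapped Mrpl46, so that a member lies across another member. Whether counting used strand is not given in the sources used here, so reads of such pairs may not be fully separated.

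The promoters of 3 members lowered in Rptor fl/fl organoids, those with the smallest adjusted p that have an entry in the promoter table, are shown, since the fall of these mRNAs is the main result below. They run from 250 bases before to 50 bases after the RefSeq start of the gene (GRCm38.p6), 5′ to 3′ on the gene's strand, with motif matches in capitals.
Mrpl18, chr17:12916042-12916341, minus strand: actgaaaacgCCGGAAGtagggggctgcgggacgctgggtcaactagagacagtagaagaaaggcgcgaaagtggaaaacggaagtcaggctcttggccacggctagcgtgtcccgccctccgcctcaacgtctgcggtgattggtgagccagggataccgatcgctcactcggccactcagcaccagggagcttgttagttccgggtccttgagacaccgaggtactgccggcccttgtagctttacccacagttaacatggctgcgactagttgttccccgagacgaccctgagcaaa
Mrps36, chr13:100744610-100744909, minus strand: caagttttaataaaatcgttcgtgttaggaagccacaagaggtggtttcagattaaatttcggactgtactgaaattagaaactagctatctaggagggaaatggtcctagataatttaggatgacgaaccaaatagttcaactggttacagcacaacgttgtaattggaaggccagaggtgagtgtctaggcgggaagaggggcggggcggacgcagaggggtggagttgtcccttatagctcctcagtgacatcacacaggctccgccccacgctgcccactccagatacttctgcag
Mrpl9, chr3:94443086-94443385, plus strand: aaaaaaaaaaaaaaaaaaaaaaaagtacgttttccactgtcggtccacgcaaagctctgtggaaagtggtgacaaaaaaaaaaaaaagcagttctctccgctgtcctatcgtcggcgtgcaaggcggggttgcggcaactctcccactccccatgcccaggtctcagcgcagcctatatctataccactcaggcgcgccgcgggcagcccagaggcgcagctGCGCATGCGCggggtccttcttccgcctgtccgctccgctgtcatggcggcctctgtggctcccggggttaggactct
The Mrpl18 promoter held an ETS-type match (CCGGAAG), the Mrpl9 promoter held the palindrome of NRF1, a regulator of nuclear genes for mitochondrial proteins, as its capitals spell, and the Mrps36 window held no match. Promoters of 69 of the 78 members were in the table. CCGGAAG, searched on both strands, stood in 25 of the 69 (36.23%), against 9.12% of 27025 promoters, 12.27% of the 16522 that belong to protein-coding genes and 24 of 64 (37.50%) promoters of cytosolic ribosomal proteins. The NRF1 palindrome stood in 3 (4.35%, against 0.98% of all and 1.37% of protein-coding promoters), namely Mrpl9, Mrpl32 and Mrpl39. The YY1 motif, whose first letters can overlap the end of CCGGAAG, stood in 5 (7.25%, against 0.70% and 1.03%), and the E-box CACGTG in 5 (7.25%, against 7.24% and 8.11%). A start of C followed by 4 pyrimidines, the mark of the TOP mRNAs that mTORC1 controls, was read in 0 of the 69 members, 13 of 64 cytosolic ribosomal proteins (20.31%), 2.49% of all promoters and 2.2% of protein-coding ones. The mark was read at the annotated start, so a start elsewhere would be missed, and 0 does not show that members lack it. These shares were not tested.

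Depth and the libraries that stood apart bear on all that follows. Assigned reads ranged from 27439459 to 67598878 per line in RNA-seq, from 1106178 to 8257457 in organoid Ribo-seq and from 772077 to 8238388 in mouse Ribo-seq. Rptor mRNA was 51.5 and 47.9 CPM (read counts scaled to a common library size, with TMM factors) in WT lines, and Rptor fl/fl lines had 14.8 and 15.5, a fall of 1.71 on the log2 scale (SE 0.08, adjusted p = 0.0052, edgeR quasi-likelihood test). Rptor footprints were 17.3, 18.7 and 16.0 CPM in organoids labelled Rptor fl/fl and 15.2, 41.9 and 21.0 in SCe, and the ranges overlapped (adjusted p = 0.32, edgeR). In mice they were 32.6, 34.4 and 36.9 CPM against 41.7, 39.7 and 44.7 in WT (adjusted p = 0.15, edgeR). Line 1 of the SCe group stood apart in both assays: its RNA-seq counts differed from lines 2 and 3 by a chi-square of 192 and 172 per gene, where lines 2 and 3 differed by 19.8, and the same pairs gave 17.9, 44.1 and 9.03 in Ribo-seq. Every epithelial marker was read in every organoid group, while the mouse libraries also held smooth muscle markers (7 of 7 read, summed level 1560 to 1839 CPM), immune markers (7 of 7, 3497 to 3877 CPM) and enterocyte markers (8 of 8, 49222 to 59267 CPM) beside stem cell markers (8 of 8, 482 to 797 CPM).

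The mRNA levels of the members spanned a wide range. Levels are given as reads per effective length, on the TPM scale. In WT organoids the median member stood at 58.5, against 7.73 for the 17173 genes with any read. Mrps21, a small subunit protein with a bacterial counterpart, was highest at 470 ± 2.66 (SD, n = 2 lines), followed by Mrpl42 at 211 ± 9.09, Mrpl52 at 199 ± 5.47, Mrpl12 at 179 ± 5.65 and Mrpl30 at 178 ± 4.39. Mrpl12 and Mrpl30 differed by less than their spread. Mrpl12, which contacts the translation factors of the organelle and also binds the mitochondrial RNA polymerase, moved to first place at 206 ± 5.38 when the full transcript length was used, and Mrps21 then stood behind Mrpl42 at 172 ± 1.44. At the other end stood Mrps25 at 6.51 ± 0.15, Mrps26 at 10.5, Mrpl19 at 10.9, Mrpl57 at 11.9 and Mrpl47 at 12.3. The same members were lowest in Rptor fl/fl and SCe organoids, with Mrps25 at 6.60 and 6.74. Mrps21 led in both of these groups, at 382 ± 6.26 in Rptor fl/fl and 427 ± 32.5 in SCe lines.

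Footprint levels ran in another order. On the same scale Mrpl52, a large subunit protein particular to mitochondria, was highest in Rptor fl/fl organoids at 1264 ± 157 (SD, n = 3 lines) and in SCe at 1255 ± 232. The effective length assumes fragments longer than a footprint, which raises short coding sequences, and per full length of the entry Mrpl52 still led at 384 ± 44.4 and 434 ± 173. Next in Rptor fl/fl organoids per full length came Mrps14 at 304 ± 25.2, Mrpl12 at 256 ± 34.7, Mrps21 at 213 ± 15.4 and Mrpl15 at 185. The lowest were Mrps2 at 22.0 ± 3.82, Mrpl37 at 27.7, Mrps11 at 29.7, Mrps12 at 34.3 and Mrpl55 at 42.0. In mice Mrps21 was highest in both genotypes, at 162 ± 30.4 in WT and 150 ± 16.7 in Rptor fl/fl per full length (n = 3 animals), and Mrps11 lowest at 17.3 ± 4.09 and 12.02 ± 3.03. The mouse entries of both genes also held the 5′ region, which was counted apart in organoids, so the orders rest on different stretches. Mrpl4 stood second in WT mice per effective length (188 ± 278) but 24th per full length (52.9), so its place depended on the length used.

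Set against mRNA, most members had more footprints than the typical gene. The ratio of footprint level per full length to mRNA level was above the median of 10972 genes for 71 of 78 members in SCe organoids and above that of 10507 genes for 72 of 78 in Rptor fl/fl organoids, with member medians of 0.67 and 0.80 on the log2 scale. The extremes were shared by both groups. Mrps25, Mrpl57, Mrps16 and Mrps26 stood highest, from 2.91 (Mrps26) to 3.99 (Mrps25) in Rptor fl/fl organoids. Mrpl42 was lowest at -1.20 in SCe and -1.07 in Rptor fl/fl organoids. The order of members was alike in the 2 groups (Spearman's rho 0.91 over 78 genes, which share annotation and length). The same ratio rose with the annotated transcript length per coding length (rho 0.40 in SCe and 0.41 in Rptor fl/fl), which was 6073 to 516 bases for Mrps25 and 666 to 429 for Mrpl42, and the part of transcript annotation in the ratio was not tested.

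**Figure D1:**
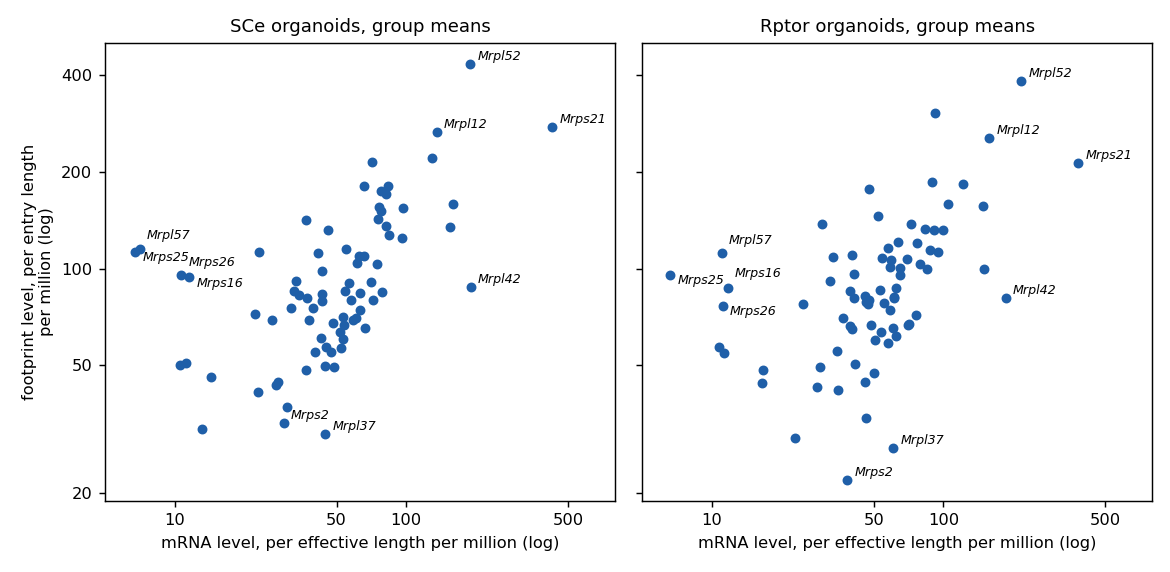
Mean mRNA level (x axis, reads per effective length on the TPM scale, log axis) against mean footprint level (y axis, reads per entry length on the same scale, log axis) of the 78 members in SCe (left) and Rptor fl/fl (right) organoids, 1 point per gene. Mrps25 sits at the far left with footprint levels of 112 (SCe) and 95.6 (Rptor fl/fl), while Mrpl42, at mRNA levels of 190 and 186, has footprint levels of 87.7 and 81.1.

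As a group the members took a small share of each library. Their share of RNA-seq reads was 0.331% and 0.335% in WT, 0.295% and 0.288% in Rptor fl/fl and 0.321%, 0.292% and 0.298% in the SCe lines. As shares of all assigned reads, both Rptor fl/fl lines lay below both WT lines, and the SCe lines lay below WT and overlapped the Rptor fl/fl lines. Reads of mRNAs encoded in mitochondria made up 8.45% and 8.85% in WT, 7.45% and 8.93% in Rptor fl/fl and 10.89%, 19.26% and 18.01% in SCe lines. A smaller part of the SCe libraries was thus left for all other genes. The place of the SCe lines may rest on this, and the members' share without such reads was not tested. Footprint shares were 0.518%, 0.536% and 0.520% in Rptor fl/fl organoids and 0.721%, 0.554% and 0.450% in SCe organoids, so the Rptor fl/fl lines lay inside the range of the SCe lines. In mice the share was 0.221%, 0.228% and 0.222% in WT and 0.208%, 0.199% and 0.1996% in Rptor fl/fl animals, with no overlap. The summed level per effective length in Rptor fl/fl was 0.90 ± 0.03 of that in WT organoids, 0.99 ± 0.09 of that in SCe footprints and 0.97 ± 0.10 of that in WT mouse footprints (SD propagated from the replicates). In bulk samples fewer cells of a type and less RNA per cell cannot be told apart.

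**Figure D2:**
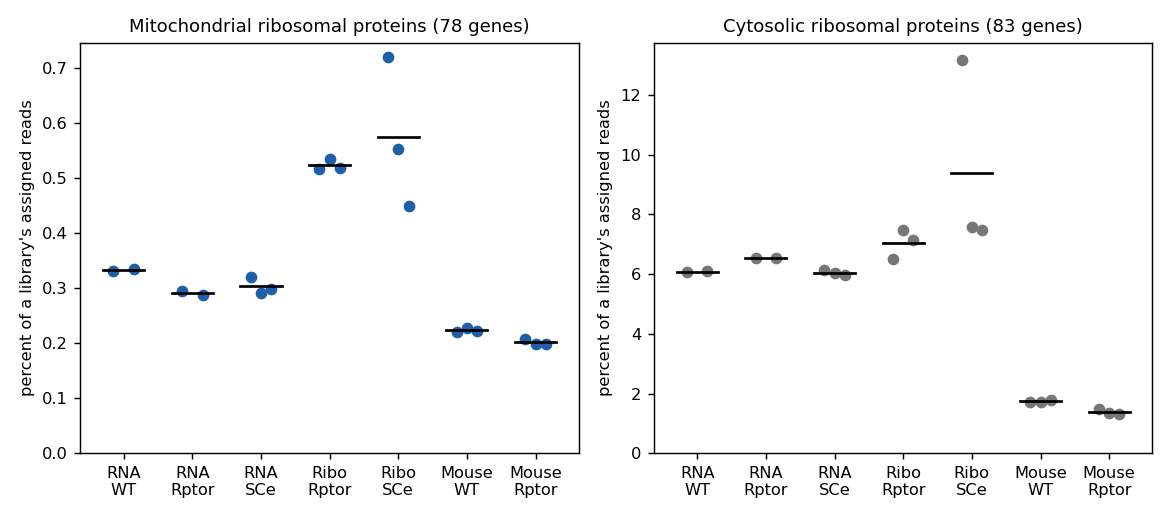
Percent of each library's assigned reads (y axis, from 0) on the 78 mitochondrial ribosomal protein genes (left) and 83 cytosolic ribosomal protein genes (right), 1 point per line or animal and a bar at the group mean. SCe Ribo-seq line 1 stands at 0.721% and 13.2%, above the other lines of its group on both sides.

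Mitochondrial ribosomal protein mRNAs were lower in Rptor fl/fl than in WT organoids, the comparison that asks what the loss of mTORC1 does to mRNA abundance. Of the 78 members 27 fell and 0 rose at an adjusted p under 0.05, where 11.0% of all 14131 genes tested fell and 11.6% rose. The median change was -0.29 on the log2 scale, against 0.00 for all genes, and 73 members lay below 0. Both Rptor fl/fl lines lay below both WT lines for 68 members and above for 2 (Mrpl23 and Mrps2), while 69.0% of all genes did not overlap in 1 direction or the other. The falls were modest in size, from 0.30 to 0.67 on the log2 scale.

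Mrps28, a small subunit protein encoded at chr3:8802146-8923918 (GRCm38, minus strand), fell furthest. It had 20.3 and 21.8 CPM in WT lines but 13.5 and 13.0 after Rptor deletion, a 1.59-fold fall (log2 change -0.67, SE 0.09, adjusted p = 0.016, edgeR). Mrpl16, a large subunit protein with a bacterial counterpart, had 45.3 and 35.5 CPM against 27.6 and 24.96 (log2 change -0.62, adjusted p = 0.040, edgeR), and its WT lines were further apart than those of Mrps28. Mrpl54 went from 37.2 and 37.0 CPM to 25.04 and 25.7 (-0.55, adjusted p = 0.0165, edgeR). In each of these genes the groups were separate.

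The genes with the smallest adjusted p also included Mrpl18, Mrps36, Mrpl9, Mrpl30, Mrps18c, Mrpl36, Mrpl50 and Mrpl12, with changes from -0.54 to -0.31 and adjusted p-values of 0.017 to 0.023 (edgeR). Mrpl18, a relative of the bacterial protein that binds 5S rRNA, had 66.9 and 71.8 CPM in WT and 51.0 and 51.0 in Rptor fl/fl lines. Mrpl12 had 156 and 152 CPM against 125 and 124. Mrpl45, which anchors the ribosome at the inner membrane near the exit tunnel, had 67.5 and 66.1 against 53.3 and 48.1 (-0.40, adjusted p = 0.025, edgeR). Of the genes followed in every comparison, Mrps12, a protein of the decoding centre, changed by -0.15 (95% interval -0.37 to 0.07) and Mrps27, an RNA-binding protein with PPR repeats, by -0.17 (-0.35 to 0.01), and neither passed the test. Mrps2 had the most positive change, with 45.7 and 45.7 CPM in WT against 52.8 and 52.5 (0.20, adjusted p = 0.064, edgeR).

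**Figure D3:**
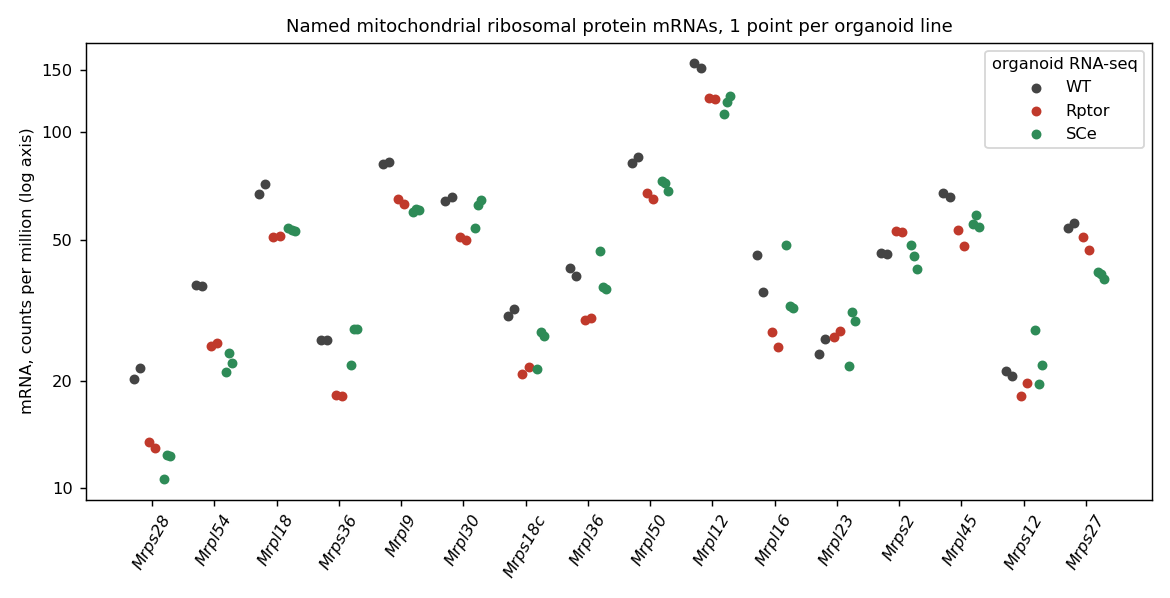
mRNA of the members named in the comparison of Rptor fl/fl and WT organoids (y axis, CPM, log scale), 1 point per line for WT (black), Rptor fl/fl (red) and SCe (green). The Rptor fl/fl points lie below both WT points for every gene plotted but Mrps2 and Mrpl23.

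The fall was spread over the parts of the particle. In the large subunit 18 of 51 members fell with a median of -0.29, and in the small subunit 8 of 26 with a median of -0.29. Of the 47 members with a bacterial counterpart 16 fell (median -0.29), and of the 30 particular to mitochondria 10 fell (median -0.28). The 5 mitoribosomal proteins whose symbols fall outside the rule were all below 0, and Chchd1 (-0.62), Gadd45gip1 (-0.36) and Aurkaip1 (-0.27) passed the test. Cytosolic ribosomal proteins were also chosen by symbol, a rule that takes in like-named genes such as Rpl22l1, Rpl36al and Rpl7l1. They had a median change of 0.05, and 4 of 80 fell: Rpl22l1, Rpl36al, Rpl41 and Rpl7l1.

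Genes that serve the mitochondrial ribosome in other ways were followed as lists. Of 25 genes for its assembly and rRNA modification 1 fell (Nsun4, -0.37) and 0 rose. Of 16 translation factors and partners Slirp fell (-0.53), while Guf1 (0.40) and Lrpprc (0.29), the partner of Slirp in stabilising mitochondrial mRNAs, rose. Polrmt, the mitochondrial RNA polymerase, rose by 0.33 and Ssbp1 fell by 0.29 among 11 genes of mitochondrial transcription and DNA maintenance. Among 9 regulators Ppargc1a (1.43), Myc (0.73) and Ppargc1b (0.44) rose and Gabpa, an ETS factor, fell by 0.31. The 13 mRNAs encoded in mitochondria had a median change of -0.11 and 0 passed the test (edgeR, 0 at an unadjusted p under 0.05, against 5639 of all 14131 genes). Cell type markers moved in the same comparison: 6 of 8 stem cell markers (summed level 5009 to 6776 CPM in WT and 2065 to 3420 in Rptor fl/fl lines) 5 of 7 Paneth cell markers (median -1.76) and 3 of 7 enteroendocrine markers (median -2.68, with 7 of 7 below 0) fell, and 4 of 7 goblet cell markers rose (median 1.17). Of 8 enterocyte markers 1 fell. The part of these shifts in the members' fall was not tested.

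The count of calls rested on all 4 lines. Without WT line 1 the test called 1 of 78 members lower, when it called 2.76% of all genes lower, so that the members' share was then under the background. Without WT line 2 it called 5 (1 of them among the 27, and 3.62% of all genes), without Rptor fl/fl line 1 it called 6 (4.12% of all genes) and without Rptor fl/fl line 2 it called 8 (6.55% of all genes), with medians from -0.28 to -0.25 and at least 71 of 78 members below 0 in each. With all 3 RNA-seq groups in 1 fit, 11 of the 27 kept their call and 4.78% of all genes were called lower.

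The comparison of SCe with WT organoids shows what the culture with CHIR 99021 and valproic acid does. Here 17 members fell and 3 rose (Mrpl17, Mrpl38 and Mrps17), where 19.9% of 14925 genes fell and 22.4% rose (42.3% in either direction), and the median was -0.09 against 0.02 for all genes. The share of members that fell was therefore close to the background. Mrps28 had 10.6, 12.4 and 12.3 CPM in the SCe lines, all below WT (log2 change -0.81, SE 0.12, adjusted p = 0.0061, edgeR). Mrpl54 was at 21.2, 24.1 and 22.4 CPM (-0.69, adjusted p = 0.0042, edgeR), and Mrpl57, at 16.1, 14.2 and 15.7 against 24.9 and 25.5 in WT, changed by -0.70 (adjusted p = 0.0051, edgeR). Mrpl53 (-0.78), Mrps34 (-0.70) and Mrpl34 (-0.58) also fell, as did Mrpl9, Mrps27, Mrps14 and Mrpl18 by 0.36 to 0.44. Mrpl12 (-0.33) and Mrpl45 (-0.23) passed the test, and Mrps36 (0.02, 95% interval -0.31 to 0.35) and Mrps12 (0.17, -0.25 to 0.58) did not. Without WT line 1 the test called 0 members higher and 3 lower (7.63% and 6.05% of all genes), and without WT line 2 it called 0 and 1 (7.49% and 5.67%). Without SCe line 1 it called 9 and 24 (31.9% and 32.2% of all genes), without SCe line 2 it called 0 and 13 (16.3% and 13.6%), and without SCe line 3 it called 0 and 9 (15.4% and 12.3%). With line numbers as a block it called 0 and 5 (11.7% and 9.39%). Cell type markers differed in this comparison too: 5 of 7 goblet cell markers (median -3.31, summed level 1761 to 1902 CPM in WT and 247 to 480 in SCe lines), 6 of 7 enteroendocrine markers (median -3.81), 5 of 8 general epithelial markers (median -0.61) and 3 of 8 stem cell markers were lower in SCe. Of 3 smooth muscle markers tested 2 were higher and 1 lower. The summed level of all 7 listed smooth muscle markers was 49.2 to 50.7 CPM in WT and 7.29 to 19.9 in SCe lines. The part of these cell type markers in the members' values was not tested.

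Compared with SCe, Rptor fl/fl organoids showed both directions in mRNA. Of the members 6 were higher and 7 lower, where 21.0% of 15103 genes were higher and 21.8% lower (42.7% in either direction), and the median was -0.11 against -0.01. Mrpl38 had 43.8 and 43.2 CPM in Rptor fl/fl lines and 57.0, 64.0 and 62.3 in SCe (-0.49, SE 0.08, adjusted p = 0.0086, edgeR). Mrpl58, a relative of peptide release factors, was lower by 0.48 on the log2 scale and Mrps36 by 0.52, with 18.3 and 18.1 CPM against 22.3, 28.0 and 28.0. Mrpl28 (-0.31), Mrps17 (-0.29) and Mrpl55 (-0.38) were also lower. Mrpl57 was higher (0.49, 20.3 and 22.6 CPM), as were Mrps31 (0.37), Mrps27 (0.30) and Mrpl37 (0.27). Mrpl3 (0.33), Mrps35 (0.34) and Mrpl22 (-0.42) complete the calls. Mrpl16 (-0.51) and Mrps34 (0.43) were among the largest changes, and with Mrpl12 (0.05), Mrpl18 (-0.07), Mrpl45 (-0.15) and Mrps12 (-0.29) they did not pass the test. Of the mRNAs encoded in mitochondria 5 of 13 were lower in this comparison, with a median of -0.99, and 4 of 13 were higher in SCe than in WT. SCe line 1 differed from lines 2 and 3 here: without it 11 members were higher and 28 lower (30.6% and 30.2% of all genes), without line 2 the counts were 1 and 1 (14.0% and 15.6% of all genes) and without line 3 they were 0 and 1 (12.5% and 14.5%). Without Rptor fl/fl line 1 they were 0 and 0 (8.16% and 8.57% of all genes), as they were without line 2 (7.88% and 8.37%). With line numbers as a block all 13 calls were lost, while 11.1% of all genes were higher and 11.5% lower. Goblet cell markers were higher for 6 of 7 (median 3.64) and general epithelial markers for 5 of 8 (median 0.79), and 3 of 8 stem cell markers were lower and 2 higher. The part of these markers in the members' values was not tested.

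**Figure D4:**
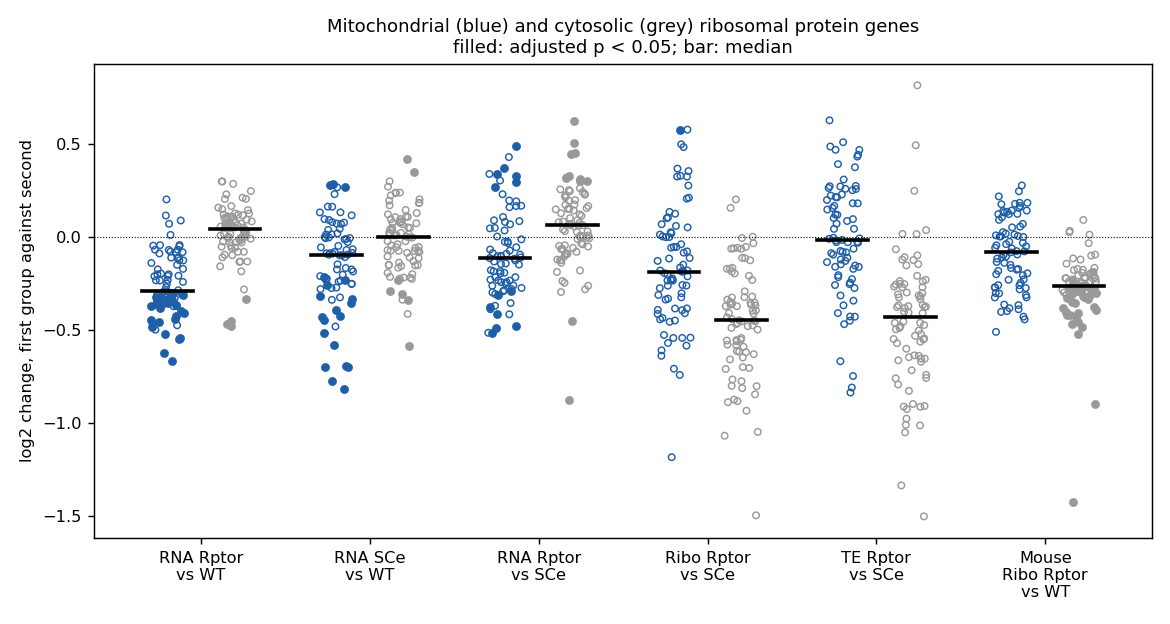
log2 change (y axis, first group against second) of each mitochondrial (blue) and cytosolic (grey) ribosomal protein gene in the 6 comparisons, filled where the adjusted p was under 0.05, with a bar at each median. The blue median lies at -0.29 in RNA-seq of Rptor fl/fl against WT organoids and at -0.08 in mice, where the grey median is -0.26.

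Footprints differed on 1 member between Rptor fl/fl and SCe organoids, the comparison that reads which mRNAs cytosolic ribosomes occupied. Mrps31, a small subunit protein particular to mitochondria, was higher and 0 members were lower, where 6.63% of 10817 genes were higher and 9.84% lower. It had 159, 157 and 156 CPM in Rptor fl/fl lines against 92.8, 109 and 114 in SCe lines (log2 change 0.58, SE 0.16, adjusted p = 0.037, edgeR), with no overlap. In these footprints 39.3% of all genes and 15.4% of members did not overlap. Mrps31 lies at chr8:22411361-22429665 on the plus strand, and its mRNA was also higher in the same contrast. The call was lost when any 1 of the Rptor fl/fl lines or SCe line 2 was left out, and with line numbers as a block. Mrps28 footprints were 85.1, 68.6 and 70.4 CPM against 55.3, 54.7 and 41.4 (0.58, adjusted p = 0.069, edgeR). Mrps12 had the most negative change, with 16.6, 18.7 and 18.9 CPM against 66.2, 42.8 and 17.6, so that SCe line 3 lay inside the range of the Rptor fl/fl lines (-1.18, 95% interval -2.12 to -0.24, adjusted p = 0.085, edgeR). Mrpl12 (-0.18), Mrpl18 (-0.13), Mrpl45 (0.01), Mrps27 (0.36), Mrps36 (-0.71) and Mrpl36 (-0.74) did not pass the test. An unadjusted p under 0.05 (edgeR) was reached by 7 of 78 members and by 3485 of the 10817 genes tested.

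The median change of members was -0.18, against -0.02 for all genes, and this value rested on SCe line 1. Without that line it was 0.11 and 6 members were higher (Mrpl11, Mrps14, Mrps18b, Mrps28, Mrps31 and Mrps35), when 10.4% of all genes were higher. Without SCe line 3 it was -0.32, with 8 members lower and Mrps31 still higher (10.6% of all genes lower and 9.70% higher). Goblet cell markers were higher in Rptor fl/fl footprints for 7 of 7 (median 2.39), enterocyte markers for 4 of 8 (median 1.76) and enteroendocrine markers for 3 of 6 (median 2.74). Of 8 stem cell markers 3 were lower and 1 higher (summed level 6491 to 6668 CPM in Rptor fl/fl and 2835 to 4886 in SCe lines). The part of these cell type markers in the members' values was not tested. Cytosolic ribosomal proteins behaved alike in this respect, with a median of -0.44 (0 of 80 called) that became -0.02 without SCe line 1. In that line 73 of 78 members had a higher CPM than the mean of lines 2 and 3. The excess was 0.96 on the log2 scale in the 39 members with a coding sequence of 198 to 579 bases and 0.39 in the 39 of 591 to 1329 bases, and it fell with coding length across members (Spearman's rho -0.66 over 78 genes of the same libraries). Over the 6693 genes with 20 or more footprints in each SCe line, rho was -0.61. In RNA-seq, SCe line 1 showed no such slope among members (rho -0.08). The largest excess was seen in Mrpl42 (1.68), Mrpl11 (1.63) and Mrpl36 (1.62), while Mrpl19 had fewer footprints in line 1 (-0.63), and these genes were picked after their values were seen.

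**Figure D5:**
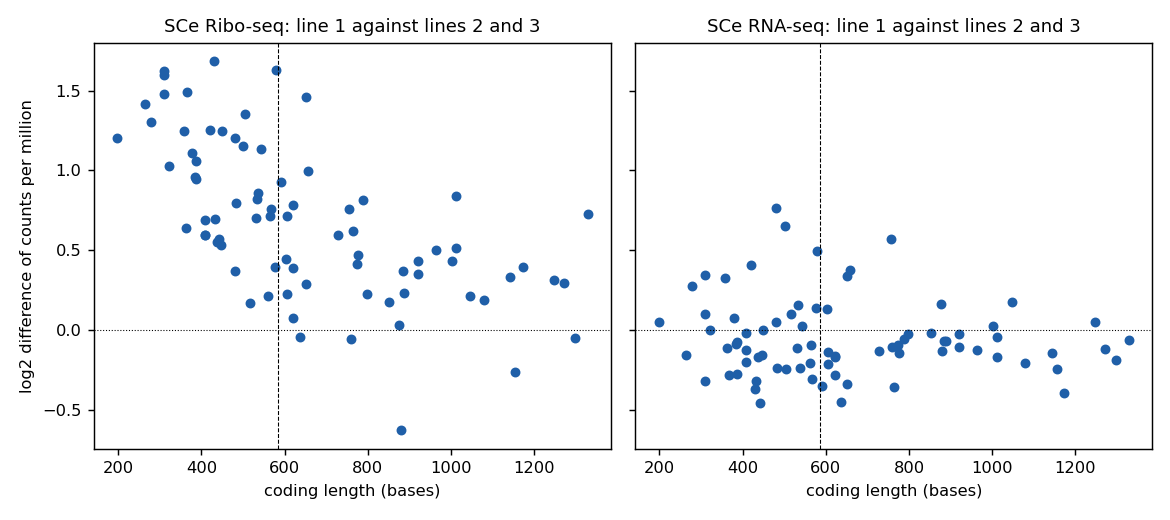
log2 difference between SCe line 1 and the mean of SCe lines 2 and 3 in CPM (y axis) against coding length in bases (x axis) for the 78 members, in Ribo-seq (left) and RNA-seq (right), with a dashed line at the median length. In Ribo-seq 73 of 78 points lie above 0, and the excess falls with length (rho -0.66), while in RNA-seq the median is -0.11 with 23 points above 0.

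Translation efficiency (TE), the change in footprints relative to the change in mRNA between Rptor fl/fl and SCe organoids, was called for 0 members in each direction (edgeR interaction test, and 1 called lower by DESeq2), where 1.12% of 10747 genes were called higher and 1.81% lower (2.93% in either direction). An unadjusted p under 0.05 (edgeR) was reached by 4 of 78 members and by 2177 of the 10747 genes. For Rptor fl/fl the mRNA came from lines whose label names no RPL22.HA, and the footprints from lines that carried it. SCe organoids carried it in both assays, so in TE this allele and the loss of Rptor cannot be told apart. The median of members was -0.02 against -0.03 for all genes, and 35 of 78 lay above 0. Mrps2, a small subunit protein with a bacterial counterpart, had the smallest p with a change of -0.81 (95% interval -1.34 to -0.27, adjusted p = 0.098, edgeR). Its footprints were 26.6, 19.1 and 23.1 CPM in Rptor fl/fl lines and 36.4, 42.8 and 29.6 in SCe, with no overlap (39.3% of all genes did not overlap in footprints). Mrps12 changed by -0.84 (-1.99 to 0.32), Mrpl32 by 0.63 (-0.02 to 1.27) and Mrpl16 by 0.51 (-0.23 to 1.25). Mrpl12 (-0.17), Mrpl18 (-0.01), Mrpl45 (0.22), Mrps27 (0.12) and Mrps36 (-0.13) had intervals that held 0. Cytosolic ribosomal proteins had a median of -0.43 with 74 of 80 below 0 and 0 called. SCe Ribo-seq line 1 had 13.2% of its reads on these genes, against 7.57% and 7.46% in lines 2 and 3. Their footprint median depended on that line, as given above, and their TE median without it is not given here. Without SCe Ribo-seq line 1 the member median was 0.28, 65 of 78 lay above 0 and Mrpl11, Mrpl32 and Mrps14 were called higher (3.59% of all genes), so the sign of the group's change depended on that line. Without SCe Ribo-seq line 3 it was -0.16, and Mrps12 and Mrps2 were called lower (3.07% of all genes).

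Footprints in mice, where the tag follows the Lgr5-driven Cre, were called for 0 members (edgeR, and 0 by DESeq2), where 7.47% of 11515 genes were higher and 5.97% lower in Rptor fl/fl animals. An unadjusted p under 0.05 (edgeR) was reached by 7 members and by 3090 of the 11515 genes. The median was -0.08 against -0.02 for all genes, 48 members lay below 0, and 13 were lower and 4 higher with no overlap of the groups (31.1% of all genes did not overlap). Mrps11 had the most negative change, with 10.9, 6.7 and 8.3 CPM against 10.1, 15.5 and 10.8 in WT (-0.51, 95% interval -1.02 to 0.01). Mrpl21 had 18.1, 15.5 and 17.3 CPM against 21.5, 19.6 and 25.8, with no overlap (-0.44, adjusted p = 0.090, edgeR). Mrpl41 (0.28) and Mrpl10 (0.25) had the most positive changes. Mrps27 changed by -0.40 (adjusted p = 0.14, edgeR), Mrps12 by -0.18, Mrpl12 by 0.12, Mrpl18 by -0.03, Mrpl45 by 0.09 and Mrps36 by 0.22, and none passed the test. The shallowest library, WT animal 1, had 772077 assigned reads and 2 footprints on Mrps12.

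In the same mice 33 of 79 cytosolic ribosomal proteins were lower, with a median of -0.26 (14 to 54 lower with 1 animal left out, when 3.23% to 7.25% of all genes were lower), as were 7 of 14 proliferation genes. The reads on mRNAs encoded in mitochondria, of which 3 of 12 were lower, had a median of -0.87 with 12 of 12 below 0. These were few, 236 to 1186 per library or 0.0142% to 0.0318% of assigned reads. The tag sits on cytosolic ribosomes and these mRNAs are translated inside the organelle, so the values do not measure their translation. The difference between mitochondrial and cytosolic ribosomal proteins was not tested. Stem cell markers fell for 3 of 7 tested and Paneth cell markers for 3 of 6 (median -0.40). Goblet cell markers rose for 4 of 7 (median 0.25, summed level 25553 to 25866 CPM in WT and 30240 to 33809 in Rptor fl/fl animals) and enterocyte markers for 3 of 8, with 1 lower. Pancreatic acinar markers were higher for 9 of 10 with 1 called (summed level 2860 to 6607 CPM in WT and 5677 to 6905 in Rptor fl/fl animals), and the part of these markers in the members' values was not tested. Tsfm, a mitochondrial elongation factor, fell by 0.54, and among the regulators Pprc1 (-0.69) and Myc (-0.48) fell.

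The Mrps18 genes are 3 paralogs that hold different places: Mrps18a in the large subunit and Mrps18b and Mrps18c in the small. Mrps18c mRNA fell in Rptor fl/fl organoids, from 30.5 and 32.0 CPM in WT to 20.9 and 21.9 (log2 change -0.54, SE 0.08, adjusted p = 0.019, edgeR). Mrps18b had 54.6 and 54.2 CPM against 54.5 and 51.2 (-0.04, SE 0.06) and Mrps18a 29.8 and 27.9 against 26.4 and 26.6 (-0.12, SE 0.08), and neither passed the test. In organoid footprints, TE and mice 0 of the 3 were called. The difference between paralogs was not tested.

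Members called lower in Rptor fl/fl organoids were also sorted by the motifs of their promoters. Of 25 members with CCGGAAG 8 had fallen, and of 44 without it 17. Of 5 with the YY1 motif (Mrpl35, Mrpl37, Mrps11, Mrps18a and Mrps27) 0 had fallen, and of 3 with the NRF1 motif 2 had. These counts are small and were not tested.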

How the data were processed

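RNA-seq and Ribo-seq of mouse organoids and Ribo-seq of mouse small intestine were analysed from the estimated counts per transcript entry that the authors deposited, together with effective lengths. They trimmed Ribo-seq reads with cutadapt 1.18, removed rRNA fragments and quantified all reads with Salmon 1.1.0 against GENCODE vM21 protein-coding transcripts, for Ribo-seq with untranslated regions trimmed (a share of the mouse entries here also held the 5′ region). A deposited table of the authors' own fold changes and p-values of translation was not used.

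Estimated counts were summed per gene (entries for 5′ reading frames apart), technical RNA-seq libraries were summed per line, and sums were rounded to whole numbers. Each of 6 comparisons was tested with edgeR 4.0.16 (filterByExpr, TMM, quasi-likelihood test) in R 4.3.3 over all genes, with Benjamini-Hochberg adjustment and a threshold of 0.05. For TE, both assays entered 1 model, normalized within each assay, and the term by which the group difference depends on the assay was tested. The scripts were tested on simulated data. Comparisons share samples, and the study calls the RNA-seq lines biological replicates, while whether lines came from separate animals is not given in the sources used here, so p-values measure the spread between these samples. Levels divided counts by the effective length, which for footprints assumes longer fragments. The full entry length was added as an alternative after seeing the data.

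The genes named are the 10 with the smallest adjusted p among those called, the 2 largest changes each way, and Mrpl12, Mrpl18, Mrpl45, Mrps12, Mrps27 and Mrps36. Others are said to have been picked later, or are listed because their count is small or as paralogs. Members and lists were chosen with earlier results of these data known. Other normalizations, DESeq2 1.42.0, filters, a replicate block and leaving out each line or animal were tried. Promoters came from RefSeq (GRCm38.p6).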

Additional observations from a re-analysis of the deposited data

Results flagged for a closer look

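Footprints on the 5′ entry of Mrps21, a reading frame region counted apart from the coding sequence and used in no organoid comparison above, made up 35.43% of all its footprints on average in Rptor fl/fl organoids (38.6%, 34.0% and 33.7%, from 305, 238 and 294 footprints) and 15.36% in SCe organoids (24.1%, 8.0% and 13.9%, from 112, 8 and 45 footprints). The mouse entry of Mrps21 also held the 5′ region, so footprints there entered the mouse values. This 5′ entry was picked out because every Rptor fl/fl line lay above every SCe line in data outside the main measurement in organoids. The rule looked in this direction only and asked for at least 30 such footprints in each Rptor fl/fl line. In the other direction 3 members (Mrpl11, Mrpl16 and Mrpl18) had every Rptor fl/fl line below every SCe line, against 1 in this direction. No such count was made over all genes. The difference in Mrps21 was not tested. Of 59 members with such an entry 47 had footprints on it.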

How the results depend on the processing

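Of the counts and medians of members and the ratios of summed levels, 158 values under the alternatives moved by less than the spread between replicates (a jackknife SD for medians), or by at most 1.5 times for counts, and 55 by more. Among the 158 are values that turned direction: in footprints (SD 0.30) the median was 0.11 without SCe line 1, and the ratio of levels, 0.99 for sums, was 1.08 for medians over members. In TE (SD 0.32) the median was 0.0067 with the replicate block, 0.0049 without RNA-seq line 2 of Rptor fl/fl, 0.036 without RNA-seq line 1 of SCe and 0.28 without Ribo-seq line 1 of SCe. Same-numbered samples deviated together in RNA-seq of Rptor fl/fl and WT lines (r = 0.40), of SCe and WT (0.23 and 0.20) and of Rptor fl/fl and SCe (0.32 and 0.28) but not in organoid Ribo-seq (-0.05, 0.03 and 0.02) or mice (0.00, 0.04 and 0.01), and only a number is shared, with 2 pairs in RNA-seq. Pairs without a shared number gave like values with SCe line 3: 0.20 for WT line 2 and 0.28 for Rptor fl/fl line 2. Between WT and Rptor fl/fl, with 2 lines each, both pairs must give the same r. With a replicate block 45 members were lower in Rptor fl/fl than WT RNA (16.9% of all genes), 0 were higher and 5 lower in SCe against WT (median -0.13), 0 and 0 were called in RNA of Rptor fl/fl against SCe, and 0 were higher in footprints. The block changed no call count of TE or mice. In 1 fit of all 3 RNA-seq groups, 11 members were lower in Rptor fl/fl against WT (4.78% of all genes) and 18 against SCe (24.7%). With technical libraries as separate replicates, 1 member was higher and 56 lower in Rptor fl/fl against WT (27.0% and 27.6% of all genes), 6 higher in SCe against WT (31.7%), and 10 higher and 31 lower in Rptor fl/fl against SCe (29.6% and 31.4%). DESeq2 called 19 members lower in RNA of Rptor fl/fl against SCe (25.9% of all genes), 1 lower in footprints (12.1%) and 1 lower in TE (7.09%). With no filter on low counts 0 members were higher in SCe against WT (17.1% of all genes) and 1 lower in footprints (7.85%). The causes were not tested.

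Leaving out 1 line at a time, the members lower in Rptor fl/fl against WT RNA numbered 1 to 8 (medians -0.28 to -0.25), members in SCe against WT 0 to 9 higher and 1 to 24 lower (medians -0.13 to -0.10), RNA of Rptor fl/fl against SCe 0 to 11 higher and 0 to 28 lower, footprints 0 to 6 higher and 0 to 8 lower, and TE 0 to 3 higher and 0 to 2 lower. Small changes of single genes turned sign. In SCe against WT Mrps36 was -0.042 with the replicate block and -0.0003 with all groups. TE of Mrpl18 was 0.083 with the replicate block. With 1 line or animal left out, single genes ranged as follows. In RNA of SCe against WT Mrps36 ran from -0.035 to 0.12. In RNA of Rptor fl/fl against SCe Mrpl12 ran from -0.0012 to 0.077. In organoid footprints Mrpl45 ran from -0.089 to 0.12, Mrpl36 ran from -1.05 to 0.033, Mrpl12 ran from -0.40 to 0.11, Mrpl18 ran from -0.32 to 0.34 and Mrps36 ran from -0.998 to 0.034. In TE Mrpl18 ran from -0.20 to 0.46, Mrpl12 ran from -0.40 to 0.11, Mrps36 ran from -0.42 to 0.61 and Mrps27 ran from -0.065 to 0.25. In mice Mrps12 ran from -0.35 to 0.015, Mrpl18 ran from -0.12 to 0.093 and Mrpl45 ran from -0.0064 to 0.20. Groups held 2 or 3 samples, and the shallowest mouse library held 2 footprints on Mrps12.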
